A study of Homo sapiens with 12 samples.

Results

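Transcript levels of 8 genes that serve red blood cells were followed through the blood differentiation of H1 cells, an established human embryonic stem cell line. The genes are KLF1, an erythroid transcription factor, and 7 genes of the red cell membrane and its skeleton: GYPB, GYPC, RHAG, SLC4A1, ANK1, SPTB and EPB42. Earlier results of these data were known when the genes were chosen. They were found by symbol among the 56593 distinct symbols of the RNA-seq table, where each stands on 1 line. The study holds 12 libraries in 4 populations of 3 libraries each. These are undifferentiated H1 cells, and H1-derived cells collected by the surface proteins APLNR (day 2, mesoderm), CD31 and CD34 (day 5, the hemogenic endothelial stage) and CD43 (day 8, hematopoietic progenitors). All differentiated cells passed through 2 days of activin A and BMP4, and the later ones went on to VEGF and bFGF; H1 cells stood for day 0, with no untreated culture of the same age among the samples. A single cell line was used, and nothing in the labels says whether the libraries of a population came from separate differentiations. The study's methods speak of independent experiments for its analyses in general, without naming these libraries, so p values measure the spread between these libraries, which may be in part technical.

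KLF1 is a zinc finger factor of red cell precursors that binds CACCC boxes and is needed for adult beta-globin and for many genes of the red cell surface. The membrane of a red cell is held to a spectrin net at a pair of anchor points. In one, the anion exchanger band 3 (SLC4A1) is tied through ankyrin-1 (ANK1) to beta spectrin (SPTB), with protein 4.2 (EPB42) and the Rh-associated glycoprotein (RHAG) in the same complex. In the other, glycophorin C (GYPC) is tied to the net through protein 4.1. Glycophorin B (GYPB) carries the S and s blood group antigens and is associated with the Rh proteins. In marrow these genes come on in sequence, and band 3 and protein 4.2 are known as late components.

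Promoter sequence was looked up for the genes because KLF1, RHAG and GYPC rose together while GYPB and SPTB took other courses (values below). RefSeq entries on GRCh38.p14 were found for 6 of the 8 genes, with SLC4A1 and ANK1 not matched. Shown are the 250 bases before the listed start of 5 of them, 5′ to 3′ on the strand of the gene, with capitals marking matches on either strand to 3 motifs: the GATA motif (that is AGATAA or AGATAG or TGATAA or TGATAG), the CACCC box (CCNCNCCC) and the E-box (CAGNTG). The sequences lie at chr19:12887202-12887451 (KLF1, minus strand), chr6:49636840-49637089 (RHAG, minus), chr2:126655908-126656157 (GYPC, plus), chr4:144019381-144019630 (GYPB, minus, the first of its 2 listed starts) and chr14:64879908-64880157 (SPTB, minus, the first of 2).
KLF1: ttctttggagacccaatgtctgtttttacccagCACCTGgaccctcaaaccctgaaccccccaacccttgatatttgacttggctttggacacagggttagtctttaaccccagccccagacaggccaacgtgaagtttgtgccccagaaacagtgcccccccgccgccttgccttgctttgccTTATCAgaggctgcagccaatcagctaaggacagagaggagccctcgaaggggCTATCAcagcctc
RHAG: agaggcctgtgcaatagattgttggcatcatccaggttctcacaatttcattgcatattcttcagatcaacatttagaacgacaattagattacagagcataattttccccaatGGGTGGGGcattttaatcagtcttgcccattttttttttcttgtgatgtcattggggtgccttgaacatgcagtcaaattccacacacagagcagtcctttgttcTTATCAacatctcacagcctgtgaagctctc
GYPC: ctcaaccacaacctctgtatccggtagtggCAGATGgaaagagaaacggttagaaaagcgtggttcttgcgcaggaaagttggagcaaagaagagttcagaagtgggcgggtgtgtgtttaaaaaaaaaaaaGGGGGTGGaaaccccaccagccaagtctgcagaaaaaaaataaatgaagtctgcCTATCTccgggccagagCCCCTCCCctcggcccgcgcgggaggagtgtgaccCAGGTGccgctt
GYPB: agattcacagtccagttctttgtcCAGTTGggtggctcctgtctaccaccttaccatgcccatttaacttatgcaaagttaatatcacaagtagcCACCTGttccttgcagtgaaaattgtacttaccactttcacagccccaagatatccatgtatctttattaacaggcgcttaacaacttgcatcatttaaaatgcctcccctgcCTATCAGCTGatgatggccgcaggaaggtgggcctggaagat
SPTB: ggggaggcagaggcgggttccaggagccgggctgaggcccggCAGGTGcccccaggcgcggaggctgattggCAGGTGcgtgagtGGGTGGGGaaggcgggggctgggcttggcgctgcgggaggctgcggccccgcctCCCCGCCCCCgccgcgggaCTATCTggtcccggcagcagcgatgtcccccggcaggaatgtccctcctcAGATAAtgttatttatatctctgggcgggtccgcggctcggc

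Each of the 6 genes with an entry held at least 1 GATA match before its first start, a motif that 22.3% of all 35116 RefSeq promoters of this length held. The KLF1 matches lay at -66 and -13 from the start, that of RHAG at -31, that of GYPC at -64 and that of GYPB at -42, where it shares 2 bases with an E-box. SPTB held GATA matches at -92 and -42 before its first start and none before the second, and EPB42 held them at -208 and -61. CACCC boxes, present in 53.4% of all promoters, numbered 1 in RHAG, 2 in GYPC, 3 in SPTB and 3 in EPB42, of which 2 in SPTB and all 3 in EPB42 overlap a neighbouring match. The KLF1 and GYPB windows held none. All 3 motifs together, found in 3.04% of promoters, were present in GYPC and SPTB. A match is a run of letters in these windows and says nothing of binding.

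**Figure D1:**
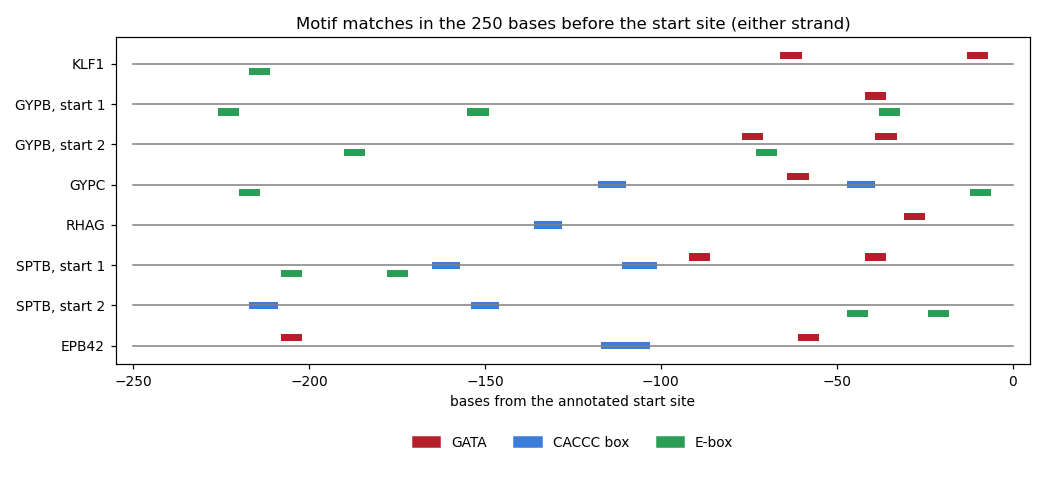
Positions of GATA, CACCC box and E-box matches in the 250 bases before the listed transcription starts of the 6 genes with a RefSeq promoter entry, with distance from the start site in bases on the x axis and 1 row per start. GATA matches are present in each row but that of the second SPTB start, and CACCC boxes are absent from the rows of KLF1 and GYPB.

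Values are FPKM (fragments per kilobase of transcript, scaled to library size) as deposited, so that levels can be compared between genes per unit of length. Each sorting marker was expressed in the population named for it, though not there alone. APLNR averaged 0.528 FPKM before differentiation, 383 at day 2, 403 at day 5 and 23.7 at day 8. PECAM1, which encodes CD31, averaged 55.2 FPKM in CD31+CD34+ cells and more, 95.9, in CD43+ cells. CD34 averaged 47.7 and 22.2 FPKM there, and SPN, which encodes CD43, 3.70 and 75.5. Read depth is not given in the table. Low values put it between 0.555 and 1.26 times that of CD43+ replicate 3, with CD31+CD34+ replicate 1 the shallowest. Library totals of FPKM ranged from 568036 to 1576040. An exact 0 can be a failed estimate, since EEF1A1, which all cells use, was listed at 0 in 6 libraries, and no fold is given against a population listed at 0. These are bulk samples, in which fewer cells of a type and less RNA per cell cannot be told apart.

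Summed over the 8 genes, the level was lowest in H1 cells and highest in CD43+ cells, mostly through GYPC, RHAG, KLF1 and GYPB. ANK1, SPTB, EPB42 and SLC4A1 averaged only 4.38, 2.34, 0.868 and 0.0295 FPKM in CD43+ cells. The summed level of the 8 genes was 13.1 to 15.5 FPKM in H1 libraries, 33.9 to 38.4 in APLNR+, 112 to 131 in CD31+CD34+ and 255 to 307 in CD43+ libraries. In H1 cells 7 of the 8 genes were under 1 FPKM in all 3 libraries, GYPC being the exception, and in CD43+ cells only SLC4A1 was. Of the 8, 6 reached 1 FPKM in at least 3 libraries and were tested, and SLC4A1 and EPB42 were not. Each of the 6 reached 1 FPKM in libraries of at least 2 populations.

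**Figure D2:**
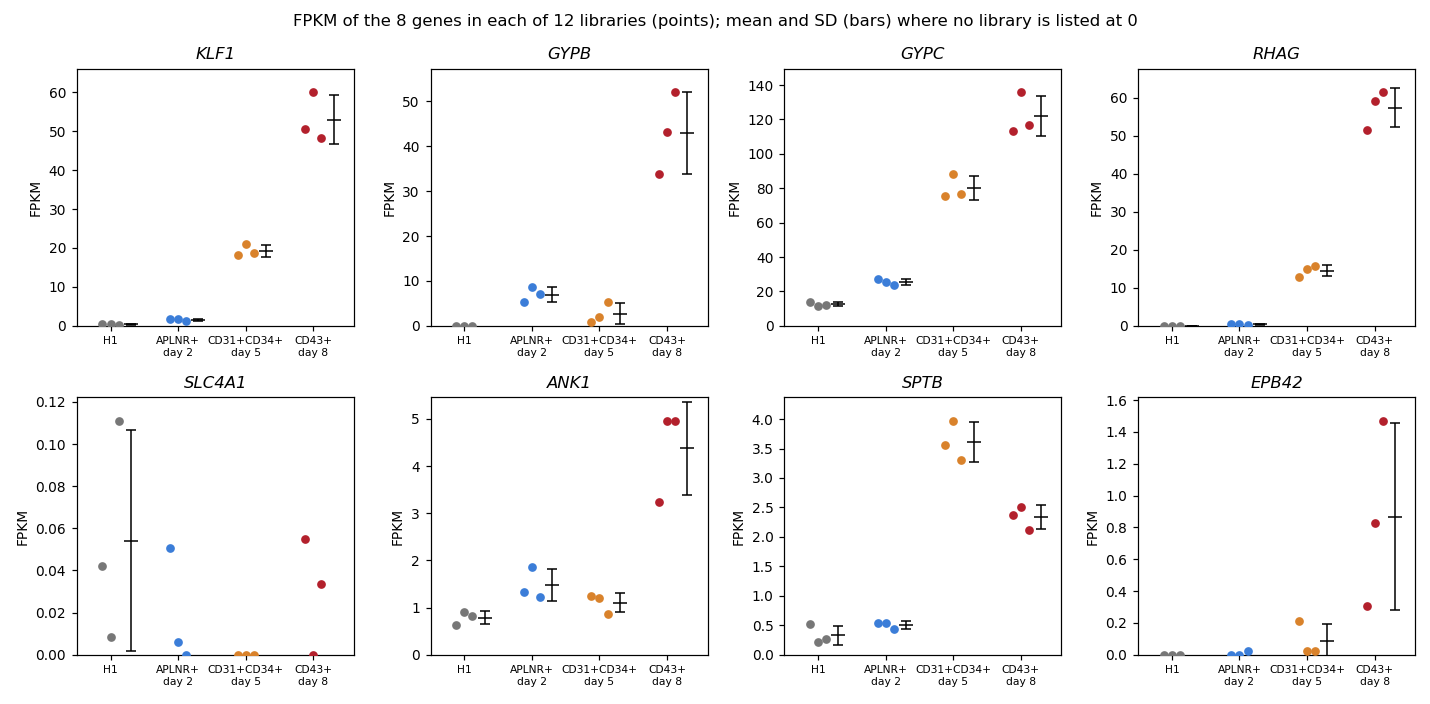
FPKM (y axis, linear and separate for each gene) of the 8 genes in H1, APLNR+, CD31+CD34+ and CD43+ cells (x axis), each point a library and each bar the mean with its SD, drawn where no library was listed at 0 and cut off at 0 for EPB42 in CD31+CD34+ cells. KLF1, RHAG and GYPC climb at each step, GYPB dips at CD31+CD34+, SPTB peaks at CD31+CD34+, and SLC4A1 stays at or under 0.111 FPKM.

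KLF1 was close to silent in H1 cells and had taken 36.4% of its CD43+ level by the CD31+CD34+ stage. It was listed at 0.481, 0.385 and 0.289 FPKM in the H1 libraries and at 1.64, 1.79 and 1.26 in the APLNR+ libraries. The CD31+CD34+ libraries held 18.1, 21.0 and 18.8 FPKM, and the CD43+ libraries 50.5, 60.1 and 48.3. No library of one population reached into the range of the next. The population means were 0.385 ± 0.0962, 1.56 ± 0.272, 19.3 ± 1.52 and 53.0 ± 6.28 FPKM (SD, n = 3 each). All log2 changes and differences, here and below, were fitted to log2(FPKM + 1). Those of low genes come out smaller on that scale than the log2 of the ratio of means printed beside them. The step from APLNR+ to CD31+CD34+ was 2.99 (SE 0.12, adjusted p = 7.88e-10) and that from CD31+CD34+ to CD43+ was 1.41 (SE 0.12, adjusted p = 8.29e-07). Between H1 and APLNR+ cells the means differed 4.06 times. On the log2(FPKM + 1) scale the difference was 0.89 (adjusted p = 4.11e-05), under the 2-fold change asked of a call on that scale. With 0.1 added in place of 1 it was 1.785 and was called. The exact two-sided permutation test of 3 against 3 libraries gave p = 0.1 at each step, the smallest it can give. The order of KLF1 among all genes tested rose with its level, and in CD43+ cells 91.8% of them were lower.

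RHAG, which stabilises the Rh proteins in the membrane, rose more steeply from a lower start. Its H1 libraries stood at 0.0672, 0.00597 and 0.0227 FPKM and its APLNR+ libraries at 0.345, 0.374 and 0.322. At CD31+CD34+ the values were 12.9, 14.9 and 15.8 FPKM, and at CD43+ 51.5, 59.2 and 61.5. The libraries of the 4 populations did not overlap. The mean was 14.5 ± 1.48 FPKM in CD31+CD34+ cells, 41.8 times that of APLNR+ cells (a log2 change of 3.52, adjusted p = 6.13e-11), and 57.4 ± 5.21 FPKM in CD43+ cells, 3.96 times higher again (1.91, adjusted p = 1.62e-08). Between H1 and APLNR+ cells, both under 1 FPKM, the means differed 10.9 times, but 24.2 times without H1 replicate 1. On the log2(FPKM + 1) scale the difference was 0.38 (adjusted p = 0.00573) and was not called. With 0.1 added in place of 1 it was 1.786 and was called. RHAG caught up with KLF1: the ratio of their FPKM was 0.709 to 0.840 in the CD31+CD34+ libraries and 0.985 to 1.27 in the CD43+ libraries. Transcripts of the Rh proteins that RHAG carries were far below those of RHAG in the last 2 populations. The ratio of RHAG to RHCE was 39.0 to 97.0 in CD31+CD34+ and 20.5 to 27.6 in CD43+ libraries. That of RHAG to RHD was 30.9 to 40.8 in CD43+ libraries. In H1 libraries, where both were under 0.1 FPKM, the ratio of RHAG to RHCE was 0.313 to 0.809.

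GYPC, the glycophorin that is also made outside the red cell lineage, was the gene of the set already expressed in H1 cells. Its libraries held 13.7, 11.6 and 11.9 FPKM in H1 cells and 27.1, 25.3 and 23.6 in APLNR+ cells. CD31+CD34+ libraries held 75.6, 88.0 and 76.4 FPKM, and CD43+ libraries 113, 136 and 117. No 2 populations overlapped. The mean rose 3.16 times from APLNR+ to CD31+CD34+ cells (a log2 change of 1.62, adjusted p = 4.68e-08). The step before it was 0.97 (adjusted p = 6.51e-06) and the step after it 0.60 (adjusted p = 0.000371), both under 2-fold. Over the whole course GYPC rose from 12.4 ± 1.15 to 122 ± 11.9 FPKM, a ratio of 9.84 (log2 change 3.20, adjusted p = 6.76e-11). Protein 4.1 (EPB41), which ties GYPC to the spectrin net, went from 24.8 ± 4.32 to 46.2 ± 6.54 FPKM between CD31+CD34+ and CD43+ cells, a log2 difference of 0.88 that was not called (adjusted p = 0.00104).

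GYPB was the only one of the 6 tested genes called lower at any step. It was listed at 0 in all 3 H1 libraries, at 5.27, 8.56 and 7.06 FPKM in APLNR+ and at 0.822, 2.03 and 5.33 in CD31+CD34+ libraries. The CD43+ libraries held 33.9, 43.1 and 52.1 FPKM. APLNR+ and CD31+CD34+ libraries overlapped, since the third CD31+CD34+ library stood above the lowest APLNR+ library, while CD43+ stood apart from the rest. The fall from 6.96 ± 1.64 to 2.73 ± 2.34 FPKM was a log2 change of -1.26 (SE 0.35, adjusted p = 0.00564), and the exact permutation p was 0.2. Without CD31+CD34+ replicate 1, the library with the lowest GYPB value and the lowest depth, the change was -0.84 (adjusted p = 0.0192) and was no longer called. The rise to CD43+ cells was 15.8 times (log2 change 3.73, SE 0.35, adjusted p = 2.35e-06), and 30.2 times without CD31+CD34+ replicate 3.

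GYPB has closely related copies in the genome, GYPE among them, and its value is uncertain to the extent that reads were divided among them. Of the 50-base stretches of GYPB transcripts, 12.7% were found in other genes. Those found in GYPE made up 1.05% of all, and those found in 1 other gene 11.6%. From APLNR+ through CD31+CD34+ to CD43+ cells, GYPE averaged 3.05, 2.04 and 21.8 FPKM. Its difference between APLNR+ and CD31+CD34+ cells was -0.41 (adjusted p = 0.00732) and was not called, and its rise to CD43+ cells was 2.89 (adjusted p = 2.23e-09). GYPB made up 63.5%, 69.4% and 66.0% of the summed level of GYPB and GYPE in the CD43+ libraries, and a mean of 50.3 ± 21.2% (SD, n = 3) in the CD31+CD34+ libraries.

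The transcript of band 3, the most abundant protein of the mature red cell membrane, was not detectable above trace. SLC4A1 stood at 0.0423, 0.00838 and 0.111 FPKM in H1, at 0.0505, 0.00592 and 0 in APLNR+, at 0 in all CD31+CD34+ and at 0.0549, 0 and 0.0334 in CD43+ libraries. Its highest value was in an H1 library, and 1.58% of the genes tested had a lower CD43+ mean. With all 34116 genes that had any value in the fit, the step to CD43+ was 0.04 (adjusted p = 0.479).

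ANK1, the ankyrin that links band 3 to spectrin, rose at the last step. Its H1 libraries held 0.638, 0.903 and 0.822 FPKM, its APLNR+ libraries 1.34, 1.86 and 1.22 and its CD31+CD34+ libraries 1.24, 1.20 and 0.865. The CD43+ libraries held 3.24, 4.96 and 4.95 FPKM and lay above all 9 others. The difference between APLNR+ and CD31+CD34+ cells, whose libraries overlapped, was -0.23 (adjusted p = 0.176). The CD43+ mean of 4.38 ± 0.990 FPKM was 3.99 times that of CD31+CD34+ cells (log2 change 1.35, SE 0.15, adjusted p = 1.13e-05). The small H1 to APLNR+ difference of 0.46 (adjusted p = 0.0185) was not called.

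EPB42, whose protein binds band 3 and ankyrin, began to appear in CD43+ cells at a low and uneven level. It was listed at 0 in the 3 H1 libraries and at 0, 0 and 0.0208 FPKM in the APLNR+ libraries. The CD31+CD34+ libraries held 0.210, 0.0247 and 0.0218 FPKM and the CD43+ libraries 0.305, 0.825 and 1.47. All CD43+ libraries were above the other 9. The means of the last 2 stages differed 10.2 times, but 37.4 times without CD31+CD34+ replicate 1 and 6.61 times without CD43+ replicate 3. With no minimum level the fit over 34116 genes gave a log2 difference of 0.74 (SE 0.18, adjusted p = 0.013), under the 2-fold change asked of a call. Of its 50-base stretches, 12.5% lie also in AC068724.4, a gene that overlaps it on the same strand.

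SPTB, the beta spectrin of red cells, peaked before CD43+. Its libraries held 0.516, 0.211 and 0.271 FPKM in H1 and 0.542, 0.538 and 0.432 in APLNR+ cells, which overlapped. They held 3.56, 3.97 and 3.30 FPKM in CD31+CD34+ and 2.38, 2.51 and 2.11 in CD43+ cells, with no overlap. The rise to CD31+CD34+ cells was 7.16 times (log2 change 1.61, adjusted p = 5.14e-08). The CD43+ mean was 0.647 times the CD31+CD34+ mean, a difference of -0.47 (SE 0.10, adjusted p = 0.00243) that was under 2-fold and not called. PLEKHG3 overlaps SPTB on the opposite strand, and whether the counting used strand is not stated, so the SPTB value is uncertain. The PLEKHG3 mean in APLNR+ cells was 0.599 times that in H1 cells. It then rose 2.62 times to CD31+CD34+ cells, the step at which SPTB rose 7.16 times. PLEKHG3 libraries did not overlap at either step. PLEKHG3 was at 34.0 ± 3.79 FPKM in CD31+CD34+ and 38.7 ± 6.22 in CD43+ cells, whose libraries overlapped. The part of PLEKHG3 reads in the SPTB values was not tested.

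In CD43+ cells the 8 genes stood in the order GYPC, RHAG, KLF1, GYPB, ANK1, SPTB, EPB42 and SLC4A1 by mean FPKM. GYPC libraries lay above all others. The libraries of RHAG and KLF1 overlapped, as did those of KLF1 and GYPB, so that the order of these 3 is not set beyond their spread. ANK1, SPTB, EPB42 and SLC4A1 each stood apart from its neighbours in the order. In CD31+CD34+ cells the order was GYPC, KLF1, RHAG, SPTB, GYPB, ANK1, EPB42 and SLC4A1, and there the libraries of SPTB and GYPB and those of GYPB and ANK1 overlapped.

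**Figure D3:**
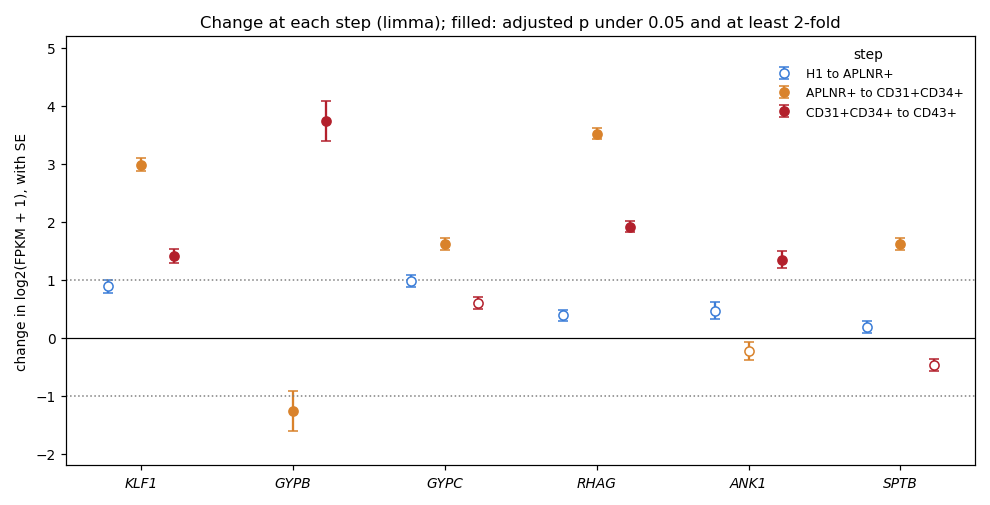
Differences in mean log2(FPKM + 1) (y axis) of the 6 tested genes (x axis) at the 3 consecutive steps (colors), with bars of 1 standard error from the limma fit, filled points for called changes, dotted lines at 2-fold, and the GYPB difference from H1 left out because H1 is listed at 0. KLF1, RHAG, GYPC and SPTB have their largest difference at APLNR+ to CD31+CD34+, and GYPB and ANK1 at CD31+CD34+ to CD43+.

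Of the 6 tested genes, 1 was called at the first step, 5 at the second and 4 at the third. From H1 to APLNR+ cells 1 gene (GYPB) was called raised, against 8.30% of all 14840 genes tested, and none lowered, against 7.62%. That call stands against H1 libraries listed at 0. Without H1 replicate 1 or without APLNR+ replicate 3, GYPC was called as well (1.04 and 1.02). With 0.1 added to FPKM in place of 1, KLF1, RHAG and GYPC were called too, so the count at this step depends on the scale. From APLNR+ to CD31+CD34+ cells 4 were raised (KLF1, RHAG, GYPC and SPTB) and 1 lowered (GYPB), against 12.5% and 17.1% of all genes. From CD31+CD34+ to CD43+ cells 4 were raised (KLF1, RHAG, GYPB and ANK1) and none lowered, against 5.58% and 8.79%. Between H1 and CD43+ cells all 6 were raised, against 14.6% of all genes raised and 22.5% lowered, GYPB against a population listed at 0. All of the 6 but GYPC were under 1 FPKM in every H1 library. On the log2(FPKM + 1) scale they could therefore not be called lowered from H1. RHAG and SPTB passed the filter only through CD31+CD34+ and CD43+ libraries, and could not be called lowered from APLNR+ either. These counts were thus in part set in advance and are a description. The median difference of the 6 genes was 0.67, 1.62 and 1.38 at the 3 steps, where that of all tested genes was -0.12, -0.01 and 0.00. By libraries that did not overlap, 5 of the 6 were higher in the later population at the first step, 4 at the second and 5 at the third, with 1 (SPTB) lower, where 26.1%, 36.9% and 28.0% of all genes were higher and 40.0%, 38.9% and 30.0% lower. CD43+ libraries lay above H1 libraries for all 6, where 33.9% of all genes did and 42.4% lay below.

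The genes split by the step at which they rose most on the log2(FPKM + 1) scale. The difference between the last 2 steps was tested in the same fit, a contrast chosen after the data were seen. It was negative, the earlier rise being the larger, for KLF1 (-1.58, adjusted p = 3.04e-05), RHAG (-1.61, adjusted p = 7.65e-06), SPTB (-2.08, adjusted p = 1.19e-06) and GYPC (-1.02, adjusted p = 0.000356). It was positive for ANK1 (1.58, adjusted p = 0.000209) and GYPB (4.99, adjusted p = 1.79e-05). Of all genes, 22.2% were called in the positive and 20.2% in the negative direction. The 2 steps share the CD31+CD34+ libraries, so an error there moves them in opposite directions. The GYPC value passed 2-fold narrowly: it was -0.96 with upper-quartile scaling and -0.75 with quantile scaling, and it lay between -0.99 and -0.88, short of a call, without APLNR+ replicate 3, CD31+CD34+ replicate 2, CD43+ replicate 1 or CD43+ replicate 3.

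Among the related genes listed, the share of the erythroid member rose in some cases and stayed small in others. Of the summed level of KLF1 to KLF6, KLF1 made up 3.86 ± 0.613% at APLNR+, 32.1 ± 2.49% at CD31+CD34+ and 70.1 ± 3.00% at CD43+ (SD, n = 3). In the last step KLF2, a factor of endothelium under flow, fell from 10.9 ± 4.13 to 0.785 ± 0.283 FPKM (a change of -2.69, adjusted p = 3.1e-07). ANK1 made up 7.59 ± 0.755% of ankyrin transcripts in CD31+CD34+ and 46.4 ± 0.432% in CD43+ cells. ANK2 and ANK3 were lower in the later population, at 8.34 and 4.98 FPKM in CD31+CD34+ and 2.62 and 2.46 in CD43+ cells. RHAG already made up 95.7 ± 1.61% of the Rh glycoprotein transcripts in CD31+CD34+ cells.

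SPTB and SLC4A1 were minor beside their paralogs. SPTB made up 2.29 ± 0.435% of the summed level of SPTB and SPTBN1 in CD43+ cells, where SPTBN1, a beta spectrin of many tissues, stood at 102 ± 14.9 FPKM. SLC4A1 made up at most 0.625% of the summed level of SLC4A1, SLC4A2 and SLC4A3 in any library, and SLC4A2, the widely expressed anion exchanger, stood at 31.6 FPKM in CD43+ cells. Of 15 paralogs of the 8 genes, 13 were tested. At the step to CD43+ cells 1 was raised (GYPE) and 3 were lowered (KLF2, ANK2 and SLC4A3), with a median of -0.50. Over all genes tested, 5.58% were raised and 8.79% lowered there.

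**Figure D4:**
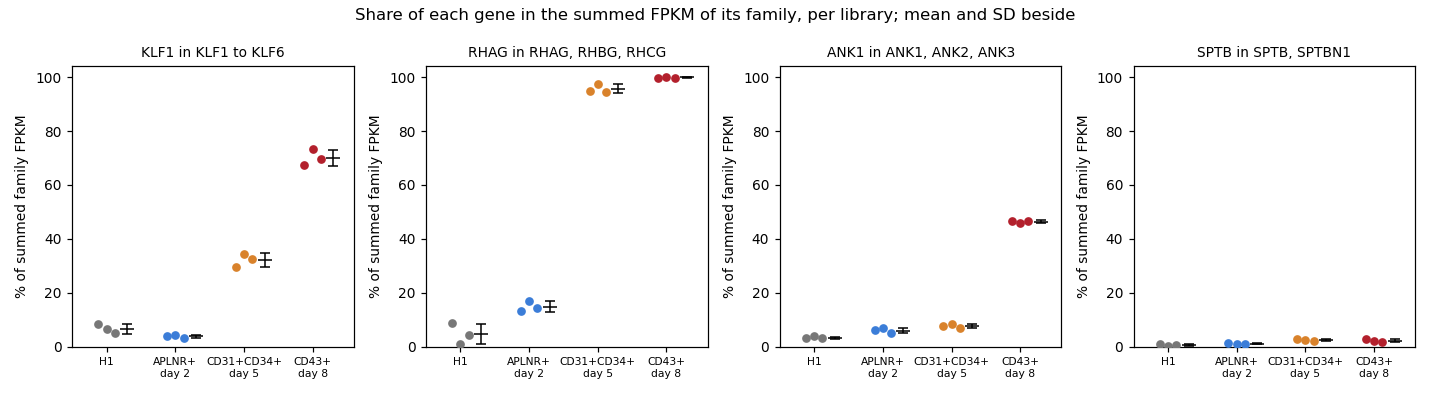
Share of each gene in the summed FPKM of its family (y axis, percent) in the 4 populations (x axis), each point a library and each bar the mean with its SD. KLF1 reaches 70.1% of KLF1 to KLF6 and ANK1 46.4% of ankyrins in CD43+ cells, while SPTB stands at 2.29% of SPTB and SPTBN1.

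Other genes of the red cell membrane were called at each step, though not as a block. Of 18 listed, 16 were tested. Over all genes tested, 8.30%, 12.5% and 5.58% were raised at the successive steps and 7.62%, 17.1% and 8.79% lowered. These shares apply to the lists below as well. At the step to APLNR+ cells 4 were raised and 1 lowered. At the step to CD31+CD34+ cells 5 were raised and 1 lowered, and at the step to CD43+ cells 5 were raised (ICAM4, GYPE, RHD, RHCE and CD47) and 2 lowered (ADD2 and AQP1), with a median difference of 0.40 beside 0.00 for all genes tested. ICAM4, the Landsteiner-Wiener antigen of the Rh complex, rose from 3.88 ± 0.844 to 48.7 ± 7.66 FPKM (a change of 3.35 on the log2 scale, adjusted p = 4.9e-09). CD47, which tells macrophages not to engulf a cell, rose from 2.33 ± 0.120 to 26.7 ± 0.543 FPKM (3.06, adjusted p = 9.63e-11). AQP1, the water channel of red cells and of endothelium, fell from 4.81 ± 0.658 to 0.721 ± 0.205 FPKM (-1.75, adjusted p = 8.85e-08). MPP1, the palmitoylated partner of GYPC and protein 4.1, had already risen from 5.44 ± 0.568 to 50.9 ± 7.69 FPKM at the step to CD31+CD34+ cells (3.00, adjusted p = 5.54e-09), and its 0.39 at the last step was not called (adjusted p = 0.0431).

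**Figure D5:**
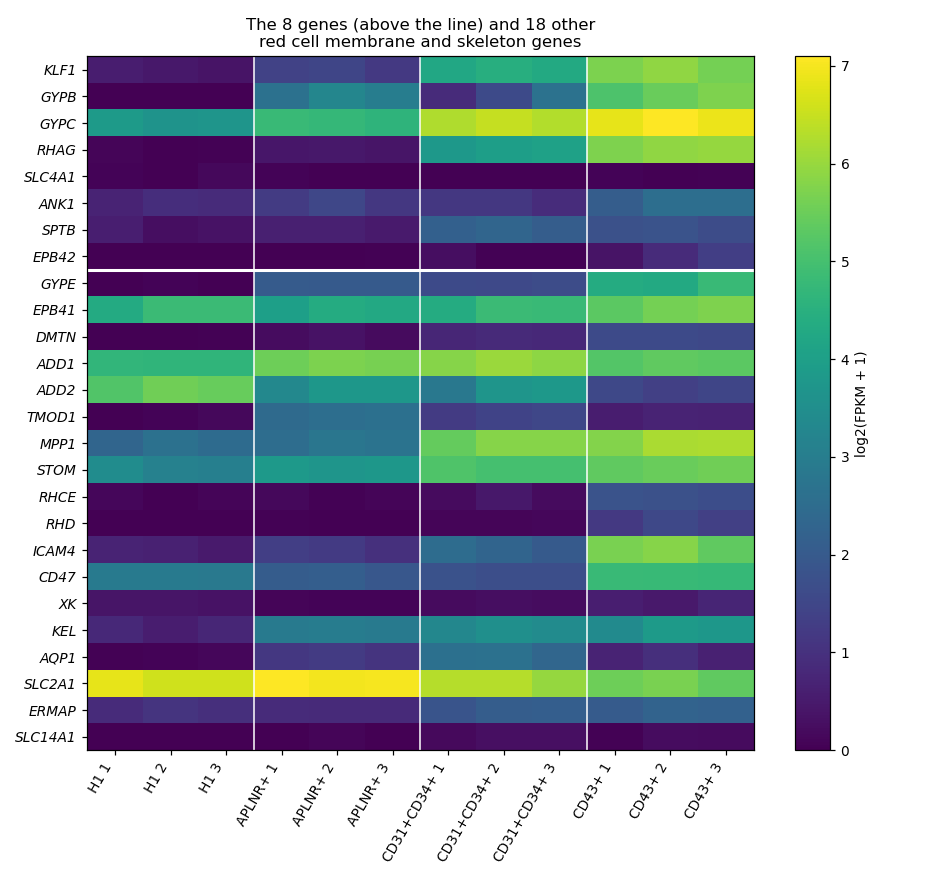
Heat map of log2(FPKM + 1) in the 12 libraries (columns, grouped by population) for the 8 genes and the other listed red cell membrane genes (rows). ICAM4, CD47 and GYPE are brighter in the CD43+ columns than in the CD31+CD34+ columns, and SLC4A1 is at the bottom of the scale throughout.

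The erythroid regulators that act with KLF1 were on at different times. Of 12 tested, none was called at the step to APLNR+ cells, 7 were raised and 1 (BCL11A) lowered at the step to CD31+CD34+ cells, and 5 were raised (GATA1, MYB, NFE2, GFI1B and IKZF1) and none lowered at the step to CD43+ cells, with a median of 0.69. TAL1 and LMO2, which form a complex on E-box and GATA sites, stood at 82.9 and 79.2 FPKM in CD31+CD34+ cells, beside 19.3 for KLF1. GATA1, the zinc finger factor of red cells and megakaryocytes, was at 1.83 ± 0.480 FPKM in CD31+CD34+ cells and at 56.0 ± 8.34 in CD43+ cells (log2 change 4.34, adjusted p = 2.28e-10). Only 3.26% of the CD43+ mean of GATA1 was present at CD31+CD34+, against 36.4% for KLF1. On the log2(FPKM + 1) scale the contrast of the last 2 steps was 2.86 for GATA1 (adjusted p = 6.15e-07) and -1.58 for KLF1. The sign for GATA1 depends on that scale, where its rise from a mean of 0.00766 FPKM in APLNR+ cells is compressed. By ratio of means, APLNR+ stood at 0.00419 of CD31+CD34+, and CD31+CD34+ at 0.0326 of CD43+. The earlier rise was thus the larger by ratio, though from a value near 0. NFE2, a globin and platelet gene activator, rose from 6.17 ± 0.485 to 105 ± 15.0 FPKM (3.88, adjusted p = 6.56e-10).

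Of 11 genes known to depend on KLF1, 9 were tested. Of all genes tested, 8.30%, 12.5% and 5.58% were raised at the 3 steps and 7.62%, 17.1% and 8.79% lowered. At the step to APLNR+ cells 3 were raised and 2 lowered. At the step to CD31+CD34+ cells, where KLF1 rose most on the log2 scale, 4 were raised (CD44, ICAM4, BCAM and AQP1) and 1 lowered (BCL11A). At the step to CD43+ cells 4 were raised (ICAM4, ALAS2, AHSP and HBB) and 1 lowered (AQP1), with a median of 0.76. ALAS2, the first enzyme of erythroid heme synthesis, rose from 0.832 ± 0.236 to 61.0 ± 10.7 FPKM at the last step (a change of 5.07, adjusted p = 1.45e-10). HBB, the adult beta-globin gene, was listed at 0, 0.0233 and 0.377 FPKM in CD31+CD34+ and at 10.2, 13.8 and 9.24 in CD43+ libraries (3.41, adjusted p = 2.92e-09). AHSP, the alpha-globin chaperone, stood at 1.59 to 2.04 FPKM in CD43+ libraries and higher, at 3.43 to 7.36, in H1 libraries.

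Markers of other lineages moved at the same step, and their part in the values of the 8 genes was not tested. All 9 megakaryocyte markers listed were tested and 7 were raised from CD31+CD34+ to CD43+ cells, their summed level going from 41.4 to 59.6 FPKM up to 668 to 711 FPKM. ITGA2B, an integrin of megakaryocytes and of early blood progenitors, alone went from 9.39 to 575 FPKM. Of 9 myeloid markers 5 were tested and all 5 were raised, their sum going from between 4.74 and 5.29 to between 48.5 and 54.2 FPKM, with SPI1 at 12.8 FPKM, while ELANE was listed at 0 in all libraries and MPO was at most 0.0813 FPKM. Of 9 endothelial markers 5 were lowered and 2 raised, and the sum went from between 591 and 834 to between 256 and 337 FPKM. 

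The profiles of the tested genes over the 12 libraries were compared by Pearson's r of log2(FPKM + 1), as a description, since the libraries share populations. KLF1 and RHAG had the highest r of the 15 pairs, 0.994, followed by KLF1 and GYPC at 0.989 and GYPC and RHAG at 0.968. GYPB and ANK1 were at 0.907, and the lowest pairs were ANK1 with SPTB, at 0.374, and GYPB with SPTB, at 0.393. Among all genes with a population mean of at least 10 FPKM, the profiles nearest to KLF1 were those of FES (0.998), IL11RA (0.997) and PFKFB4 (0.997), and nearest to RHAG those of DLL4 (0.998), NXF3 (0.996) and ACTA2 (0.996). QPRT (0.997), JUNB (0.996) and TNIP1 (0.995) were nearest to GYPC, and PPM1F (0.998), UBASH3B (0.996) and RGS3 (0.996) to SPTB. For the last-step genes the r of the nearest profiles was lower. Nearest to GYPB were MGST2 (0.986), TSC22D1 (0.982) and SLC40A1 (0.979), the iron exporter. ALAS2 (0.971) and DAZAP2 (0.968) were nearest to ANK1. Ranked by Spearman's rho instead, only PFKFB4, MGST2 and TSC22D1 of these stayed among the 3 nearest, so the names depend on the measure.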

How the data were processed

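Per the labels, TruSeq libraries were made from Trizol-extracted RNA. In the methods 2 companies sequenced them, without a statement of which library went where. The authors deposited 1 table of FPKM values with a column for each of the 12 libraries, matched to samples by title. The submitters' processing notes name hg19, BWA, Bowtie and RSEM, with no role or version; the annotation, any scaling between libraries and the use of strand are not given in the sources used here. The table held 58365 entries after 1 text line was left out, and where a symbol recurred, its highest mean decided which entry was used. FPKM values are not counts, so no count model was used, and depth is known only as a ratio between libraries.

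Values were analysed as log2(FPKM + 1). The 14840 genes at 1 FPKM or more in at least 3 libraries were fitted with limma 3.58.1 (R 4.3.3; lmFit, contrasts.fit, eBayes with trend), all 4 populations in 1 model without covariates, and p values were adjusted by Benjamini-Hochberg over all genes of a comparison. Calls required 2-fold change or more together with adjusted p below 0.05. Exact two-sided permutation tests of 3 against 3 libraries cannot go below p = 0.1. The fit was tested on simulated data. Other steps used matplotlib 3.10.9, scipy 1.17.1, pandas 2.3.3 and numpy 2.4.6 under Python 3.11.15. Alternatives were another pseudocount, filters, scalings and fold thresholds, fits of fewer samples, a block on replicate number and leaving out each library.

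The 8 genes and the lists, written from general knowledge, were chosen with earlier results of these data known. Named genes were the 8, the sorting markers, in each list up to 4 called genes with the largest change at the step to CD43+ and up to 2 uncalled genes with the highest CD43+ mean, and up to 3 nearest profiles per tested gene. Other genes in the text were named after their values were seen. Promoters were RefSeq entries on GRCh38.p14, a different build from that of the expression table, and were joined by symbol only. Stretches shared between genes were counted on GENCODE transcripts, 50 bases at a time. Some genes and results are not reported here.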

Additional observations from a re-analysis of the deposited data

How the results depend on the processing

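No alternative turned the direction of a called change. Of 542 values of the 6 tested genes under 23 alternatives, 520 kept both direction and call, 13 passed the call only under the alternative and 9 lost it, 14 of these through the fold threshold alone. From H1 to APLNR+ cells the count of genes called was 1, but 4 with a pseudocount of 0.1, 2 with upper-quartile scaling, 2 with quantile scaling, 5 with no minimum change, and 1 to 2 with single libraries left out. From APLNR+ to CD31+CD34+ cells it was 5, but 2 with a 4-fold minimum, 4 with a mean of at least 5 FPKM, and 4 to 5 with single libraries left out. From CD31+CD34+ to CD43+ cells it was 4, but 1 with a 4-fold minimum, 6 with no minimum change (GYPC raised and SPTB lowered), 3 with a mean of at least 5 FPKM, and 4 in all fits with a library left out. For CD43+ against H1 cells it stayed at 6 with any library left out and was 4 with a 4-fold minimum. The fit of H1 and APLNR+ libraries alone gave no value for RHAG or SPTB, which fell below the filter there. The filter of a mean of at least 5 FPKM left ANK1 and SPTB out of every comparison, so its counts do not cover them.

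Over all genes the counts of calls depended on the fold threshold, the pseudocount and the filter: raised genes numbered 1232 from H1 to APLNR+ (382 to 3376 over the alternatives), 1861 at the next step (433 to 5329) and 828 at the last (186 to 3840), and lowered genes 1131 (187 to 5218), 2539 (442 to 5619) and 1305 (268 to 4121). Scaling moved the median of all genes from -0.12 to between -0.07 and -0.04 at the first step and from -0.10 to between -0.02 and 0.02 for CD43+ against H1.

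The labels number the replicates alike in each population. Same-numbered libraries of different populations deviated together with correlations from -0.02 to 0.43, and from 0.20 to 0.43 among the replicate 1 libraries, the shallowest of each population. Pairing was asked to show in each pair at over 0.1, which 12 of 18 pairs passed, and the numbers were not taken as pairs. Of 12 libraries, 7 correlated best with their own number, a hint of shared structure from the data and not from the design. A replicate block left the counts of called genes at 1, 5, 4 and 6 in the 4 comparisons. The precision of all values is limited by 3 libraries a population and, for SLC4A1 and EPB42, by low values with unknown read numbers behind them.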

Other observations

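KEL and TMOD1, red cell membrane genes picked out after their values were seen, were raised at the first step, as GYPB was. KEL, the Kell blood group protein, was at 0.644 ± 0.147 FPKM in H1 cells and rose to 6.67 ± 0.253 by APLNR+ (log2 change 2.22, adjusted p = 2.55e-08) and stood at 9.69 ± 0.928 in CD31+CD34+ and 11.9 ± 2.10 in CD43+ cells, differences that were not called. TMOD1, which caps the actin filaments of the membrane skeleton, rose from 0.0559 ± 0.0451 to 4.85 ± 0.352 FPKM in APLNR+ cells (2.47, adjusted p = 8.2e-10) and then fell to 1.62 ± 0.264 in CD31+CD34+ cells (-1.16, adjusted p = 4.73e-07).

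ADD2, beta adducin, and SLC2A1, the glucose transporter of red cells, ran the other way. ADD2 was at 41.1 ± 5.76 FPKM in H1 cells and at 1.75 ± 0.182 in CD43+ cells (-3.93, adjusted p = 8.7e-09), and SLC2A1 at 101 ± 10.4 and 45.2 ± 4.58 FPKM (-1.15, adjusted p = 1.82e-06).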
